A study of Homo sapiens with 8 samples.

Results

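The genes examined were the epidermal growth factor receptor (EGFR) family and its classical ligands. They comprised 4 receptors (EGFR, ERBB2, ERBB3 and ERBB4) and 6 ligands (EGF, AREG, EREG, TGFA, HBEGF and BTC), chosen by name with earlier results of these data known, or 10 of the 20136 protein-coding genes on chromosomes 1 to 22, X and Y. Each was described by its gene region, the annotated gene body in GRCh37 plus 2 kb upstream. Chromatin immunoprecipitation sequencing (ChIP-seq) was performed in PC9 cells, a human lung adenocarcinoma line, after 5 days with vehicle (DMSO) or with 1 μM GSK126, an inhibitor of the H3K27 methyltransferase EZH2, and D. melanogaster chromatin was added to the reactions as a spike-in. H3K27me3 and H3K4me3 were each profiled in 2 libraries per treatment, 8 libraries in all, from which the authors deposited 14 lists of enriched regions called islands. PC9 is a single line driven by an activating EGFR mutation. The study describes its PC9 replicates as biological. The sample labels do not tell separate cultures apart, so the spread between replicates given here may be partly technical.

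The EGFR family receptors are transmembrane tyrosine kinases that dimerize when a ligand binds and then signal through the RAS-MAPK and PI3K-AKT pathways. ERBB2 binds no known ligand and acts as a partner of the other receptors, and ERBB3 has a weak kinase and depends on its partners. The ligands are made as membrane-anchored precursors and are released by proteases, so a cell can express both a receptor and the factor that activates it. H3K4me3 marks the starts of active or poised genes, whereas H3K27me3 is deposited by EZH2 within the PRC2 complex and marks silenced genes.

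To show the starts to which the islands refer, the 250 bases upstream of 5 members are given below from the GRCh37 reference, with each CpG dinucleotide in capitals, because H3K4me3 islands commonly lie at CpG-rich starts. The stretches are chr7:55086460-55086709 for EGFR (plus strand), chr5:139726189-139726438 for HBEGF (minus strand), chr4:75719734-75719983 for BTC (minus strand), chr4:110833789-110834038 for EGF (plus strand) and chr4:75310603-75310852 for AREG (plus strand).
EGFR: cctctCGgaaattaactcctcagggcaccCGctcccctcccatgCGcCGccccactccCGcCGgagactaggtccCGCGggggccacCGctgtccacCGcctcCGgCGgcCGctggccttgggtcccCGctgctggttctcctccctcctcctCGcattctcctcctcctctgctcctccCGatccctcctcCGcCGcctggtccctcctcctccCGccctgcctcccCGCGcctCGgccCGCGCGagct
HBEGF: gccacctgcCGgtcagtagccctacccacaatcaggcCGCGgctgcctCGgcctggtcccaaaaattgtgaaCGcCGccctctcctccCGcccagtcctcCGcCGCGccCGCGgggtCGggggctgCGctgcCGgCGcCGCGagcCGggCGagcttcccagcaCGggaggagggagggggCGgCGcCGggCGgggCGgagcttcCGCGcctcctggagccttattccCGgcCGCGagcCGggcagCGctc
BTC: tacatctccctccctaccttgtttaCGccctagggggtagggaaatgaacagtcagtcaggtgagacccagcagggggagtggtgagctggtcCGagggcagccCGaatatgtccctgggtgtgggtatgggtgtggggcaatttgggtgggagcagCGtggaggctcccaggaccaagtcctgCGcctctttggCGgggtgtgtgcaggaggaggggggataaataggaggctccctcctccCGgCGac
EGF: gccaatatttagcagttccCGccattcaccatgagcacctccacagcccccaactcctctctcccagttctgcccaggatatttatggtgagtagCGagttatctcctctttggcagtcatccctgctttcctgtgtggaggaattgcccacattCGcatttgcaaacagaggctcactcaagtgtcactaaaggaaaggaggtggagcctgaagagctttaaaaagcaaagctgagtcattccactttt
AREG: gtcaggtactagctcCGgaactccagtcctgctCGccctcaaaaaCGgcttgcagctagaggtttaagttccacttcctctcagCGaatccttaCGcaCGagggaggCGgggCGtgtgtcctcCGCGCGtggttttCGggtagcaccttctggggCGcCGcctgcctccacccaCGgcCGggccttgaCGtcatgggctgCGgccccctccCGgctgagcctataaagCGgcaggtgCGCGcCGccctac
HBEGF had 33 CpG in this stretch, TGFA had 27, EGFR had 25, AREG had 23, ERBB3 had 22, ERBB4 had 14, ERBB2 and EREG each had 11, BTC had 8 and EGF had 3. The median over 20132 protein-coding genes was 18, with quartiles of 7 and 26. The family thus reached beyond both quartiles, from CpG-rich (HBEGF and TGFA) to CpG-poor (EGF). The letters GGGCGG (the GC box), on either strand, occurred 5 times upstream of HBEGF, 3 times upstream of TGFA, 2 times upstream of EGFR and 1 time each upstream of ERBB4 and AREG, and in 58.7% of all promoters of this length. The letters TATAAA (the TATA box) occurred 1 time each upstream of AREG and EREG, and in 9.4% of all promoters.

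Islands are runs of 200-bp windows that hold more sequencing tags than a random background gives, called by the SICER algorithm in each library separately. Most libraries had a list for each of 2 normalizations. In the standard lists, both libraries of a replicate had been reduced to the same number of human tags. In the spike-in lists, tags had been removed from the GSK126 library according to the D. melanogaster tags, so that its list rests on fewer tags. The H3K4me3 libraries with DMSO had 1 list each, which served both comparisons. The lists hold no tag counts, but their scores gave the mean number of tags per window. For H3K27me3, it was 1.65 and 2.33 in the DMSO spike-in lists of replicates 1 and 2 and 0.382 and 0.455 in the GSK126 spike-in lists, or 23.1% and 19.6% of DMSO. For H3K4me3, it was 1.77 in replicate 1 and 0.302 in replicate 2 with DMSO, and the GSK126 spike-in lists had 83.6% and 86.9% of these. H3K4me3 replicate 2 was thus the shallowest, and treatments were compared within a replicate. No p-value is given, since exact sign flips of 2 pairs reach 0.5 at best. At the gene starts, H3K4me3 was present in both DMSO lists for 6 of 6 epithelial markers, for 0 of 4 blood markers and for COL1A1 among 2 fibroblast and endothelial markers that were found in the annotation, while CDH5 carried it in 1 of these lists.

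In each H3K4me3 list, islands lay over 67.4% to 71.4% of the 20136 genes. The mark was found over 8 of the 10 members, and the same 8 genes had islands in all 6 H3K4me3 lists. The exceptions were EGF, the founding ligand, and AREG (amphiregulin), which had no island of either mark in any of the 14 lists. At the start of the canonical transcript (within 1000 bp on either side), all 4 receptors and the ligands EREG, TGFA, HBEGF and BTC had H3K4me3 in all 6 lists, a state shared by 60.98% of the 20136 genes. H3K27me3 was present at this place in both DMSO spike-in lists for 18.03% of genes and for no member. When the outermost annotated 5′ end was used instead, ERBB3 lost its H3K4me3, because its canonical transcript starts 3366 bp further downstream, and 7 members remained. ERBB2 had H3K4me3 at both of its starts, which lie 12150 bp apart.

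The 2 members without islands differed in how they can be read. AREG (chr4:75310853-75320722) has a near-identical copy in this build, AREGB, and 92.8% of the 50-base stretches of the AREG region also occur exactly in the AREGB region. Only tags with a single place in the genome had been kept, so the absence of islands over AREG says nothing about its chromatin. For the other 9 members, 1.27% (EGFR) to 11.1% (ERBB3) of such stretches had a further copy. EGF (chr4:110834039-110934922) is among these, with 4.56%, and has the fewest CpG of the family at its start, as printed above.

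Of the receptors, EGFR had by far the greatest length under H3K4me3 islands. EGFR (chr7:55086710-55279321, plus strand) has a gene region of 194.6 kb, of which islands covered 93.1 kb with DMSO in replicate 1 and 18 kb in replicate 2. With GSK126, the spike-in lists covered 79.3 kb and 11.8 kb and the standard lists covered 67.1 kb and 13.8 kb. Every GSK126 value was below the DMSO value of the same replicate, but the ranges overlapped because replicate 2 was lower with either treatment. In DMSO replicate 1, 1 gene of 20136 had a longer covered length than EGFR, and in replicate 2, 21 genes had one. Among the 3733 genes with a region of at least 100 kb, the median covered share was 2.39% and 1.14% in these lists, compared to 47.8% and 9.25% for EGFR.

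Most of the EGFR coverage lay in intron 1, which spans 122.9 kb or 63.8% of the gene. It held 73.7 kb of the covered length in DMSO replicate 1 (79.2%) and 12.7 kb in replicate 2 (70.8%). The island at the start itself was 10.8 kb and 5.4 kb wide and had a higher score than 99.6% and 99.8% of the islands at gene starts in its list. The remaining 18 and 8 islands over EGFR scored lower, and the median island over the gene scored above only 23.4% and 25.5% of all islands of its list. Replicate 1 contained 94.4% of the covered bases of replicate 2, whereas replicate 2 contained 18.3% of those of replicate 1. Stretches covered in all 6 lists lay from 1.31 kb upstream to 3.69 kb downstream of the start, at 35.7 to 36.1 kb, 46.9 to 47.5 kb, 111.7 to 112.3 kb and 113.7 to 115.5 kb in intron 1, and at 166.7 to 167.5 kb in intron 20. These recurrent pieces added up to 9.2 kb.

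ERBB2 (chr17:37844167-37886679), the receptor with no ligand of its own, had islands over 15.9 kb and 9.08 kb of its 44.5 kb region with DMSO. With GSK126, the spike-in lists covered 15.1 kb and 8.08 kb and the standard lists 15.5 kb and 8.08 kb, values that were lower within each replicate but overlapped between treatments. Part of this length belongs to islands that also reach the neighbouring genes PGAP3 and MIEN1. The ERBB2 island at the canonical start was wider with GSK126 in replicate 1 (9.8 kb in both kinds of list, compared to 9.4 kb with DMSO). In replicate 2 it was narrower (2.2 kb, compared to 2.8 kb). ERBB3 (chr12:56470583-56497289), the kinase-impaired receptor, had 5.09 kb and 3.29 kb with DMSO. It had 5.89 kb and 3.69 kb in the GSK126 spike-in lists and 6.09 kb and 3.69 kb in the standard lists, and it was the member whose covered length was greater with GSK126 in both replicates. One of its islands also covers the start of the neighbouring gene PA2G4. ERBB4 (chr2:212240442-213403565), the longest member with a region of 1165 kb, had only 5.0 kb and 2.4 kb with DMSO. With GSK126 it had 4.4 kb and 2.0 kb in the spike-in lists and 4.4 kb and 2.2 kb in the standard lists. As a share of the region, ERBB4 thus had 0.429% and 0.206% with DMSO, the lowest among the members with islands. ERBB2 had 35.7% and 20.4%, and ERBB3 had 17.7% and 11.5%. By share, EGFR was above both in replicate 1 (47.8%) and below both in replicate 2 (9.25%).

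**Figure D1:**
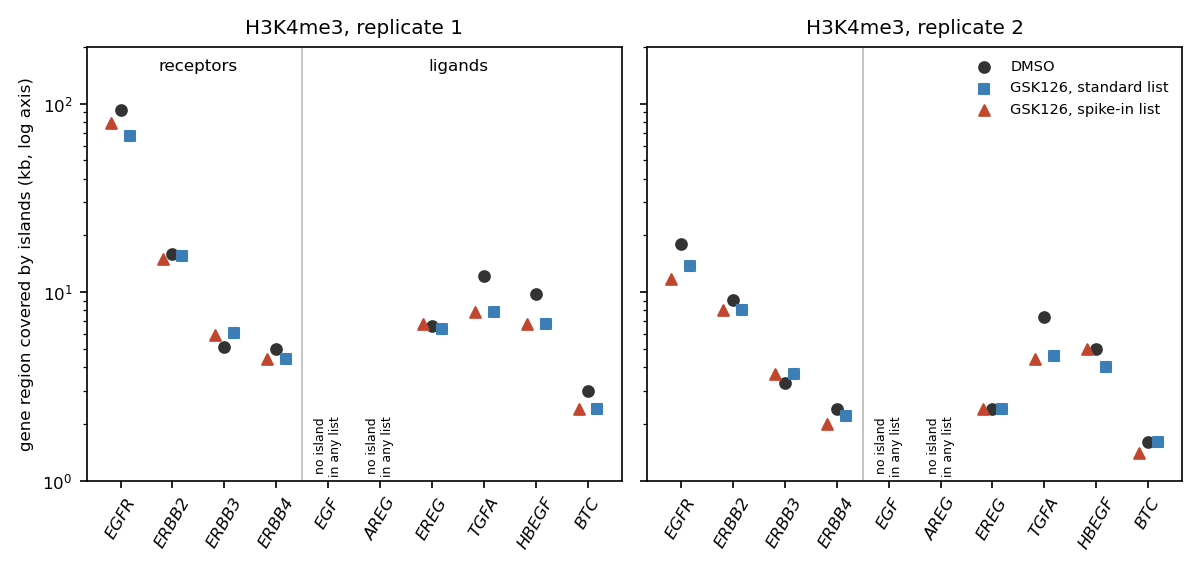
Length of each gene region covered by H3K4me3 islands (kb, log axis) in replicate 1 (left) and replicate 2 (right), with 1 point per list: DMSO (black circles), GSK126 standard list (blue squares) and GSK126 spike-in list (red triangles). EGFR stands above all other members in both replicates (93.1 kb and 18 kb with DMSO), and EGF and AREG have no island.

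Among the ligands, TGFA (transforming growth factor alpha, chr2:70674416-70781325) had the greatest covered length with DMSO. It had 12.2 kb and 7.4 kb with DMSO, compared to 7.8 kb and 4.4 kb in the GSK126 spike-in lists and 7.8 kb and 4.6 kb in the standard lists. HBEGF (the heparin-binding ligand, chr5:139712428-139726188) had 9.79 kb and 5.0 kb with DMSO. It had 6.79 kb and 5.0 kb in the GSK126 spike-in lists and 6.79 kb and 4.0 kb in the standard lists, so that its decrease in replicate 2 depended on the normalization. As a share of its short region, HBEGF was the most covered member, with 62.1% and 31.7% with DMSO. EREG (epiregulin, chr4:75230862-75254466) differed little between treatments, with 6.6 kb and 2.4 kb with DMSO, 6.8 kb and 2.4 kb in the GSK126 spike-in lists, and 6.4 kb and 2.4 kb in the standard lists. BTC (betacellulin, chr4:75669969-75719733) had the least, with 3.0 kb and 1.6 kb with DMSO, 2.4 kb and 1.4 kb in the GSK126 spike-in lists, and 2.4 kb and 1.6 kb in the standard lists. EREG, AREG and BTC lie within 0.5 Mb of each other on chromosome 4.

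The H3K4me3 island at the canonical start also differed in width among the members. With DMSO, its median width over all genes with such an island was 4.2 kb in replicate 1 and 2.4 kb in replicate 2. EGFR (10.8 kb and 5.4 kb), HBEGF (9.6 kb and 3.6 kb) and TGFA (6.6 kb and 4.8 kb) were above the median in both replicates, and so were ERBB2 (9.4 kb and 2.8 kb) and ERBB3 (4.6 kb and 3.2 kb). The islands of BTC were 3.0 kb and 1.6 kb wide, wider than 16.1% and 14.8% of start islands. HBEGF, TGFA and EGFR had the most CpG upstream of the start of these 8 genes, and BTC had the fewest. With DMSO, the island of ERBB2 (11 CpG) was wider than that of TGFA (27 CpG) in replicate 1 and narrower in replicate 2. Whether the width follows the CpG was not tested. EREG was close to the median, with 4.4 kb and 2.4 kb. With GSK126, the EREG island was 5.2 kb and 1.4 kb wide in the spike-in lists, in opposite directions from DMSO in the 2 replicates.

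**Figure D2:**
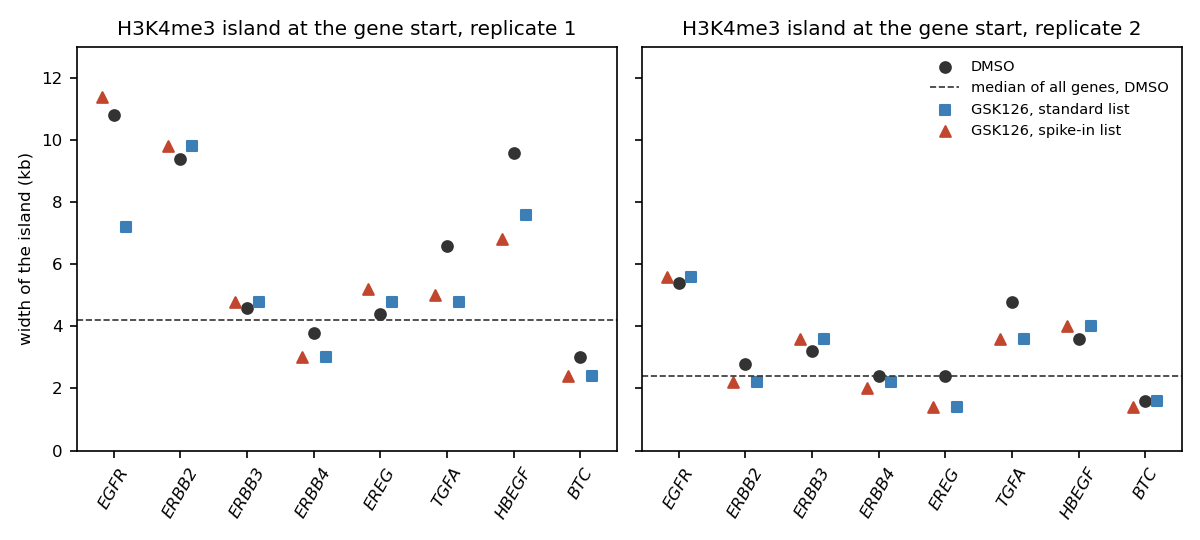
Width of the H3K4me3 island at the canonical start (kb) of the 8 members that have one, with 1 point per list in replicate 1 (left) and replicate 2 (right), and the DMSO median over all genes as a dashed line at 4.2 kb and 2.4 kb. EGFR, HBEGF and TGFA lie above the DMSO median in every list shown and BTC lies below it.

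Across the family, as over all islands of the lists, the length covered by H3K4me3 was slightly lower with GSK126. The log2 ratio of the summed covered length, GSK126 to DMSO, was -0.29 ± 0.08 in the spike-in lists and -0.33 ± 0.06 in the standard lists (SD, n = 2). EGFR made up 57.6% to 61.8% of this length in the lists of replicate 1 and 30.4% to 36.6% in those of replicate 2. Without EGFR, the ratio was -0.22 in both kinds of list. No member had both GSK126 values below both DMSO values, in the spike-in lists (met by 1.62% of 14500 genes with an island) or in the standard lists (1.9% of 14560), and none had them above (0.2% and 0.234%). Since replicate 2 was much shallower than replicate 1, this rule leaves little room for any gene, and the direction within each replicate was counted in addition. By that count, 5 of the 8 members were lower in both replicates in the spike-in lists (EGFR, ERBB2, ERBB4, TGFA and BTC), against 35.0% of genes, and 5 of 8 in the standard lists (EGFR, ERBB2, ERBB4, TGFA and HBEGF), against 35.5%. ERBB3 was higher in both replicates in either kind of list, against 7.94% and 6.81% of genes. In replicate 1, the ERBB3 island at the canonical start was 4.6 kb wide with DMSO and 4.8 kb with GSK126. Most of the difference of ERBB3 in that replicate thus lay elsewhere in its region. In replicate 2, the start island was 3.2 kb wide with DMSO and 3.6 kb with GSK126 in both kinds of list. The whole region had 3.29 kb and 3.69 kb there, so in replicate 2 the difference lay at the start. Lengths change in steps of 200 bp, and the differences for ERBB4 and BTC amounted to between 0.2 kb and 0.6 kb in the replicates where they differed. The paired difference for TGFA was -3.40 ± 0.909 percentage points of its region in the spike-in lists (SD of the 2 paired differences). It exceeded this SD, as did those of ERBB2 (-2.02 ± 0.318), ERBB3 (2.09 ± 0.985), ERBB4 (-0.0429 ± 0.0121) and BTC (-0.773 ± 0.546). The TGFA values still overlapped between treatments, with 11.2% and 6.79% for DMSO and 7.16% and 4.04% for GSK126. For EGFR, the paired difference was -5.14 ± 2.76 percentage points in the spike-in lists. In the standard lists it was -7.76 ± 7.92, which did not exceed the SD.

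H3K27me3 was found over a single member, EGFR. The other 9 had no H3K27me3 island in any of the 8 lists of this mark. In the DMSO spike-in lists, 13696 of the 20136 genes had no H3K27me3 island in either replicate, so that its absence was common. For ERBB4 the absence extends over 1165 kb, whereas 20 of 71 genes with a region of at least 1 Mb had none. The distance from the gene region to the nearest island of the DMSO spike-in lists was 12.6 kb and 12.8 kb for ERBB2, 96.3 kb and 98.1 kb for TGFA, 113 kb and 239.6 kb for HBEGF, and 297.9 kb in both replicates for ERBB3. For EGF, ERBB4 and the gene cluster of EREG, AREG and BTC, it was over 1 Mb in either replicate.

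The H3K27me3 islands over EGFR mostly scored low in their lists, by a score that adds up over windows and so depends on width. With DMSO, the spike-in lists had 9 islands over 30.8 kb in replicate 1 and 5 islands over 15.7 kb in replicate 2. The standard lists had 5 islands over 20.7 kb and 3 islands over 8.6 kb. In the DMSO spike-in lists, 979 and 1893 of the 20136 genes had a longer H3K27me3 length than EGFR. Of the 3733 genes with a region of at least 100 kb, 539 and 744 had a larger covered share. In the 4 DMSO lists, the median island over EGFR scored above 16.6% to 20.9% of the islands of its list, and the strongest above 64.2% (replicate 1, spike-in list). The strongest island in that list lay 182.9 to 186.1 kb from the start, over exon 27 of 28 and the introns beside it. Stretches common to all 4 DMSO lists lay at 47.9 to 49.7 kb in intron 1 and at 182.9 to 186.1 kb, 5.0 kb in total. A stretch at 161.3 to 163.9 kb, around exon 20 of the kinase domain, was present in both DMSO spike-in lists and in 1 of the 2 standard lists.

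At the EGFR start, the lists disagreed. An H3K27me3 island that began about 4.5 kb upstream ended 1.09 kb past the start in the DMSO spike-in list of replicate 2 and 0.89 kb past it in the DMSO standard list of replicate 1. It was absent from the spike-in list of replicate 1, although both lists of replicate 1 came from the same library, and from the standard list of replicate 2. In the GSK126 standard list of replicate 1, an island covered the same place, to 1.29 kb past the start. The call at the start thus differed between lists of the same library. The 2 marks shared parts of EGFR: with DMSO, 17.2 kb in replicate 1 and 6.0 kb in replicate 2 carried islands of both marks, or 55.8% and 38.2% of the length under H3K27me3 in the spike-in lists. With the standard lists of H3K27me3, the overlap was 8.89 kb and 3.2 kb (43.0% and 37.2%). As given above, H3K4me3 covered 47.8% and 9.25% of the whole region. The libraries come from many cells, and whether both marks were on the same copies was not tested.

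**Figure D3:**
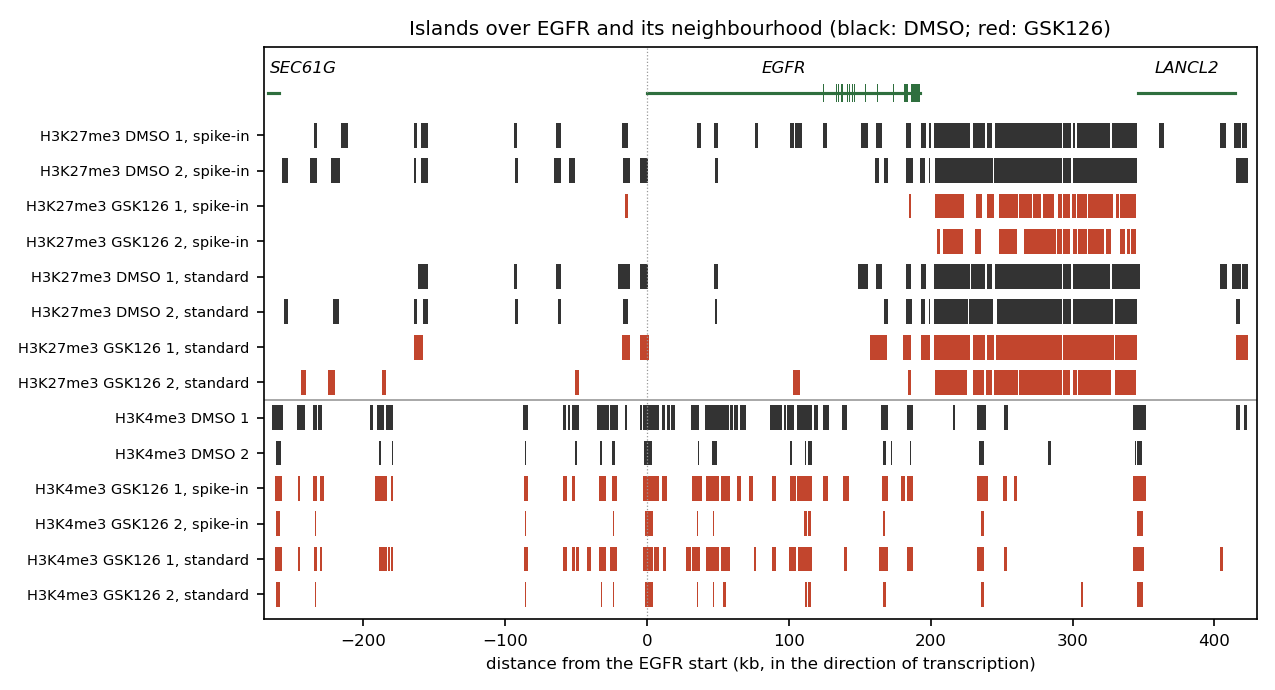
Islands over EGFR and its neighbourhood in the 14 lists, with distance from the EGFR start in kb on the horizontal axis and 1 row per list (mark, treatment, replicate and normalization; H3K4me3 DMSO lists serve both). Black bars are DMSO islands, red bars are GSK126 islands, and green lines are genes with the EGFR exons as boxes. H3K27me3 islands are scattered over EGFR and dense between EGFR and LANCL2, and H3K4me3 islands are concentrated at the start and in intron 1.

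With GSK126, H3K27me3 over EGFR was nearly lost from the spike-in lists. A single island of 1.2 kb remained in replicate 1, at 184.7 to 185.9 kb from the start and within the strongest DMSO island, and none remained in replicate 2. In replicate 1, the covered share of the gene region was 15.8% with DMSO and 0.617% with GSK126, and in replicate 2 the corresponding shares were 8.06% and 0%. This was a difference of -11.6 ± 5.05 percentage points (SD, n = 2), with no overlap between treatments. Against the DMSO lists of the standard normalization, the difference was -7.22 percentage points. The lack of overlap held for 75.0% of the 6456 genes with an island in these lists, and 77.4% were lower in both replicates, so EGFR moved in the direction of most genes. The median difference over these genes was -14.3 and -15.3 percentage points in replicates 1 and 2, compared to -15.2 and -8.06 for EGFR. With islands limited to those of 2 times the minimum score in each list, DMSO replicate 2 had none over EGFR, and the ranges no longer separated.

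In the standard lists, H3K27me3 over EGFR hardly differed between treatments. The 3 islands with GSK126 in replicate 1 covered 20.3 kb, compared to 20.7 kb with DMSO, and the 2 islands in replicate 2 covered 7.4 kb, compared to 8.6 kb. The values overlapped between treatments, whereas 36.5% of 6132 genes had no overlap with lower values under GSK126. Within replicates EGFR was lower in both, as were 46.8% of genes, by -0.411 ± 0.291 percentage points (SD, n = 2). The median difference over genes was -1.66 and -4.69 percentage points in replicates 1 and 2, compared to -0.206 and -0.617 for EGFR. The GSK126 library of replicate 1 thus gave 20.3 kb of islands over EGFR at the tag number of the standard list and 1.2 kb at that of the spike-in list. Fewer tags and less H3K27me3 at EGFR cannot be told apart in a list of islands, since the tag number was itself set from the spike-in. The islands were not the same ones in the 2 treatments. In replicate 2, the island at 47.9 to 49.7 kb was absent with GSK126 and another one lay at 103.1 to 107.7 kb, and a stretch of 2.6 kb near the end of the gene, at 183.7 to 186.3 kb, was common to all 4 standard lists.

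**Figure D4:**
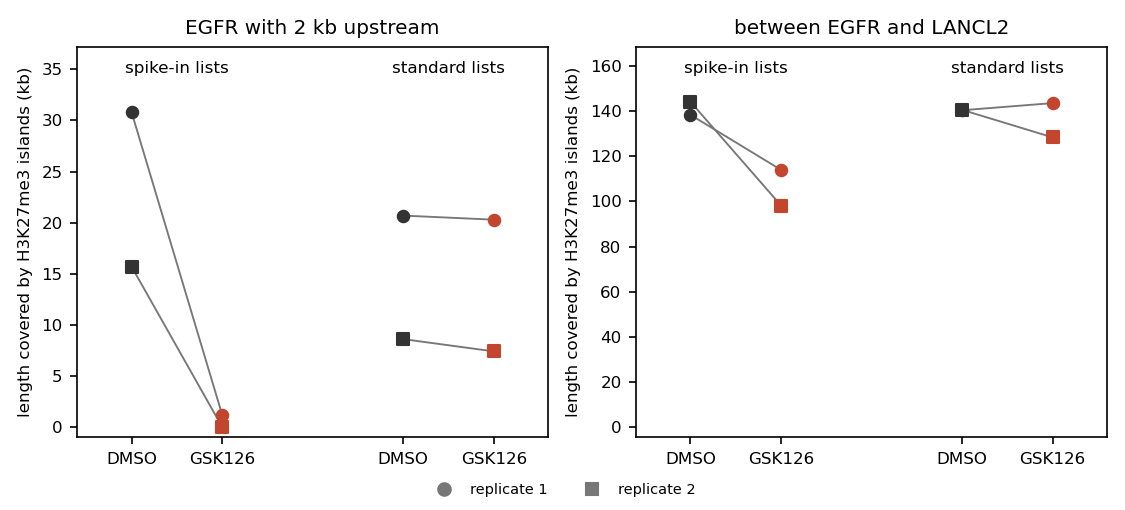
Length covered by H3K27me3 islands (kb) over the EGFR gene region (left) and over the interval from EGFR to LANCL2 (right), with DMSO in black and GSK126 in red, replicate 1 as circles and replicate 2 as squares, and lines joining the lists of a replicate. Over EGFR the spike-in values fall to 1.2 kb and 0 kb, and over the interval they are 114 kb and 98.2 kb.

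The interval behind EGFR was densely covered by H3K27me3. Between the end of EGFR and the start of LANCL2 (chr7:55279322-55433029, 153.7 kb with no other protein-coding gene), H3K27me3 islands covered 138.4 kb and 144.2 kb in the DMSO spike-in lists, compared to 114 kb and 98.2 kb in those of GSK126. As shares of the interval these lengths were 90.04% and 93.8% (DMSO) and 74.2% and 63.9% (GSK126). In the standard lists, the interval had 140.4 kb and 140.6 kb with DMSO and 143.6 kb and 128.4 kb with GSK126. The strongest island there with DMSO, 47.0 kb and 47.4 kb long in the spike-in lists, scored above 99.0% and 98.9% of all islands. In the spike-in lists, the islands of the interval were more broken up with GSK126, numbering 14 in each list compared to 10 and 6 with DMSO. The strongest was then 20.8 kb and 13.8 kb long at another place. In the standard lists, the islands numbered 8 and 8 with DMSO and 7 and 9 with GSK126. There, the strongest with GSK126 was 46.2 kb long in replicate 1, where the 47.0 kb DMSO island lay. In replicate 2 it was 22.6 kb long at another place. The DMSO islands over EGFR scored low in their lists and the strongest of the interval near the top, so that they did not start equally far from the calling threshold, and covered length does not show how much H3K27me3 remained at either. Upstream, between SEC61G and EGFR (259 kb), H3K27me3 covered 23.6 kb and 43.9 kb with DMSO and 2.2 kb and 0 kb with GSK126 in the spike-in lists. With DMSO, H3K4me3 covered 22.3% and 4.26% of the interval from SEC61G to EGFR, 9.39% and 4.44% of that from EGFR to LANCL2, 7.85% and 3.76% of LANCL2, and 35.0% and 8.38% of VOPP1 beyond it. Islands had been called against a random background and not against input DNA, and whether the number of copies of this stretch of chromosome 7 in PC9 cells bears on these lengths was not tested.

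The genes most like EGFR across the 14 lists were far from it. The 3 protein-coding genes with the smallest Euclidean distance to it in percent covered were ZPR1 (21.8 percentage points), STEAP3 (24.4) and CD9 (24.9), all of which have shorter regions, of 16.2 kb, 43.8 kb and 40.6 kb. ZPR1 was covered by H3K27me3 over 8.34% on average in the DMSO spike-in lists, compared to 11.9% for EGFR, and by H3K4me3 over 30.3% on average with DMSO, compared to 28.5%.

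The remaining ligands of the family are 4 neuregulins and epigen (EPGN). H3K27me3 islands were found in the spike-in lists over 4 of these 5 genes, and 3 of the 4 had lower values with GSK126 without overlap, a rule met by 75.0% of all genes with an island. In the standard lists, 2 of the 4 were lower (36.5% of genes) and 1 was higher (3.62% of genes) without overlap. NRG2, a ligand of ERBB3 and ERBB4, was covered over 63.2% and 65.3% of its 198.5 kb region with DMSO and over 30.8% and 36.2% with GSK126 in the spike-in lists. In the standard lists, NRG2 was covered over 62.4% and 59.7% for DMSO and 69.4% and 53.9% for GSK126, in opposite directions in the 2 replicates. Its start carried both marks. Of 33 genes of ErbB signalling (adaptors, RAS-RAF-MEK-ERK and PI3K-AKT components, STAT factors, sheddases and inhibitors of the receptors), 31 had H3K4me3 at the canonical start in all 6 lists (60.98% of all genes) and 5 had an H3K27me3 island in the spike-in lists (32.1% of all genes). Of these 5, 4 were lower with GSK126 without overlap in the spike-in lists, and 2 were lower and 1 was higher in the standard lists. The one with at least 20% under H3K27me3 in both DMSO lists was STAT5A, a transcription factor activated downstream of the receptors, with 78.2% and 92.6% of its 26.4 kb region under H3K27me3 with DMSO and 16.7% and 25.9% with GSK126. In the standard lists, the shares of STAT5A were 73.5% and 88.8% for DMSO, compared to 44.1% and 25.1% for GSK126. H3K4me3 coverage was lower in both replicates for 16 of the 32 genes with an island in the spike-in lists and for 15 of 32 in the standard lists, against 35.0% and 35.5% of all genes.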

How the data were processed

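Per the labels and the study's methods, 50-nt single-end tags had been aligned with BWA to hg19 (GRCh37), duplicates and tags without a unique position had been removed (SAMtools 0.1.18 is among the tools named), and SICER islands had been called by the authors in each library against a random background (E-value 1, 200-bp windows, gaps of 600 bp in H3K27me3 and of 200 bp in H3K4me3 lists). The deposited score of an island adds up, window by window, how improbable its tags are under a Poisson background (as a negative natural log). It depends on depth and was used to rank or filter islands within a list and to fit the tags per window.

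Genes came from GENCODE 44 mapped to GRCh37. Covered base pairs of each gene region were computed in all lists with Python 3.11.15, NumPy 2.4.6, pandas 2.3.3 and SciPy 1.17.1, and plotted with Matplotlib 3.10.9. Treatments were compared within a replicate, because the authors had removed tags within replicates. Replicate numbers follow the study's pairing of libraries. Before the log2 ratio of summed lengths, 200 bp was added, since 1 list had no island over the members. A gene was counted where it had an island in at least 1 of the 4 lists compared. Named beyond the 10 members were ligands and signalling genes with H3K27me3 over at least 20% of the region in both DMSO spike-in lists, or without overlap and with a mean change of at least 10 percentage points, genes reached by a member's island, and the 3 genes closest to EGFR. Genes flanking EGFR were named after their values were seen. The members and lists were chosen with earlier results of these data known. The functions were tested on simulated data. No depth per island is available, so no interval was computed. Alternatives were a stricter score, a common score floor, a minimum island length (2000 bp in H3K27me3 and 600 bp in H3K4me3 lists), other gene regions and starts, leaving out each replicate, no pairing, leaving out ERBB4, and comparing the GSK126 spike-in lists of H3K27me3 to the DMSO standard lists. The count within replicates and the sum without EGFR were added after seeing the data.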

Additional observations from a re-analysis of the deposited data

How the results depend on the processing

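The summed H3K27me3 length, which is that of EGFR, changed by -5.39 ± 1.30 on the log2 scale in the spike-in lists (SD, n = 2) and by -0.12 ± 0.13 in the standard lists, and the first value depends on the 200 bp added, since 1 list was at 0. It was -2.04 and -2.12 with a score of at least 2 times the lowest, -6.73 and -2.17 with a common score floor, and -6.79 and 0.045 with a minimum island length. The last setting turned the difference of EGFR in the standard lists to 0.0514 percentage points. The stricter score left 0 members lower in the spike-in lists, where there had been 1. Without EGFR, the H3K4me3 sum in the standard lists was -0.22. Leaving out 1 replicate, the count of members lower ranged from 1 to 1 for H3K27me3 in the standard lists, from 5 to 6 for H3K4me3 in the spike-in lists and from 5 to 7 in the standard lists. Counted with the replicate block (lower within each replicate), it was 1, 5 and 5. The pairing comes from the study, which removed tags within replicates. Of the comparisons that answer the design, 65 values under an alternative stayed within the replicate spread or 1.5 times the count and 17 moved. For single members, 131 stayed, 13 moved and 1 reversed. The cause of these shifts was not tested, apart from fewer islands under stricter settings. Depth limits H3K4me3 replicate 2 and the GSK126 spike-in lists of H3K27me3, where weak islands may not have been detectable.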
